A study of Mus musculus with 24 samples.

Results

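The response of control macrophages to lipopolysaccharide (LPS) plus interferon gamma (IFNγ) was read from 12 of the 24 ATAC-seq libraries of the series, chosen by their titles: 6 of stimulated and 6 of unstimulated cells. All 12 came from macrophages grown out of the bone marrow of male C57Bl/6 mice that the labels call wild-type controls and that had received no treatment. Stimulated cells were given 100 ng/mL LPS together with 10 ng/mL IFNγ, and unstimulated cells neither. The other 12 libraries, from mice made diabetic with streptozotocin, a toxin of insulin-producing beta cells, comprised 6 stimulated in the same way and 6 unstimulated, and served as a second set of samples. The series description has each mouse sample divided between both states, but the labels do not tie a stimulated library to its unstimulated partner, nor say whether a sample was 1 mouse or a pool, so the p-values below measure the spread between libraries. The duration of stimulation is uncertain, because the protocol names a culture of 6 h only for cells given IL-1β and says that baseline cells were lysed at once. Effects of the stimulus and of time in culture therefore cannot be told apart.

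LPS is a component of the outer membrane of Gram-negative bacteria and is recognised by the receptor TLR4, whose adaptors activate the transcription factors NF-κB and AP-1 and, through a second branch, interferon beta. IFNγ signals through the kinases JAK1 and JAK2 to factors that bind the GAS element, and interferon-regulatory factors (IRFs) bind the related ISRE. Together these signals drive the classical, microbe-killing state of macrophages, in which cytokines, chemokines, nitric oxide synthase and antigen presentation are induced. In ATAC-seq the transposase Tn5 cuts accessible DNA, so that promoters and enhancers in use stand out as peaks of sequenced fragment ends.

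The authors' peak list of each library was the starting point. Peaks of all lists were merged into regions where they overlapped, a region was called gained where significantly more stimulated than unstimulated libraries held a peak in it, and lost in the opposite case. Regions with a peak in all 12 control libraries were compared by the rank of their peak within each library. A region without a peak lay below the authors' calling threshold, which is not the same as closed chromatin. Genes are those whose body lay nearest to the region within 50 kb, which need not be the genes a region acts on, and coordinates are of the mm10 build.

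Gained and lost regions seldom fell on promoters. Of 17492 genes with a RefSeq promoter window, 12 had a gained region over it and 38 a lost one. The windows shown first are 3 of those gained and 2 of those lost at genes of the pathways described here, and were chosen after their values were seen. Cxcl9 encodes a chemokine for T cells that IFNγ induces, Il12a the p35 subunit of interleukin-12, and Serpinb2 the plasminogen activator inhibitor PAI-2. Cd36 encodes a scavenger receptor for oxidised lipoprotein, and Gpnmb a transmembrane glycoprotein of lysosome-rich macrophages. Each window runs from 250 bases before to 50 bases after the transcription start, on the gene's own strand, as given by RefSeq for assembly GRCm38.p6, and all 5 are printed 5′ to 3′ with capitals marking every match to the motifs spelled out after them.
Cxcl9 (chr5:92328030-92328329, minus strand, gained): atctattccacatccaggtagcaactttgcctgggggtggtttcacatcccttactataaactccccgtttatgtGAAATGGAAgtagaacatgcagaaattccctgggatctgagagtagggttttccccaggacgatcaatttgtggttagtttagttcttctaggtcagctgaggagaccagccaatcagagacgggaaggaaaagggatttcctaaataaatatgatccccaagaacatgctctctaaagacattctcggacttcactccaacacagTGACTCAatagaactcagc
Il12a (chr3:68691174-68691473, plus strand, gained): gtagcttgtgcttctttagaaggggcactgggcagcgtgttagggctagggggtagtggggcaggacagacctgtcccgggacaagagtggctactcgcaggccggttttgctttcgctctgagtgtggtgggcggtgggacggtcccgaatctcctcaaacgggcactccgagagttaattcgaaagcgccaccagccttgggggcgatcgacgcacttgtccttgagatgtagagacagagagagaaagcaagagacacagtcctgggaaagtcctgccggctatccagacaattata
Serpinb2 (chr1:107511173-107511472, plus strand, gained): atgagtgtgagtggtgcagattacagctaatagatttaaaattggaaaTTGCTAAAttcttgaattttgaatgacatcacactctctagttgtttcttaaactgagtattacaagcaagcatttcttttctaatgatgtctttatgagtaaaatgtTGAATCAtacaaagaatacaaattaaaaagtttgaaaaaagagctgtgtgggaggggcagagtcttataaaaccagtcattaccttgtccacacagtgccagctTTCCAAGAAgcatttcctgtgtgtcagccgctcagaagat
Cd36 (chr5:17835847-17836146, minus strand, lost): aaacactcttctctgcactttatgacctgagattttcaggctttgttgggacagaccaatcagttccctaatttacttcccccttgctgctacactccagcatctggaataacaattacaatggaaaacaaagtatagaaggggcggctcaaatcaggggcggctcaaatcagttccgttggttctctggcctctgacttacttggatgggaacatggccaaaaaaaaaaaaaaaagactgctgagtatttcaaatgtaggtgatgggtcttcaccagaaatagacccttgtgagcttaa
Gpnmb (chr6:49036268-49036567, plus strand, lost): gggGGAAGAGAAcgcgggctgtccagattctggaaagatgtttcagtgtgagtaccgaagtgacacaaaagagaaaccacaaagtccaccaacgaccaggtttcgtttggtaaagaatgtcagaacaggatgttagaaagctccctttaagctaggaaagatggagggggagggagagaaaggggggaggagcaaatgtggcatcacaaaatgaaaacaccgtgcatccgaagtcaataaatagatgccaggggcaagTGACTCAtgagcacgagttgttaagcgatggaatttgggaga

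A further 3 windows belong to promoters that held a peak in all 12 libraries. On stimulation their peaks fell in rank of fold, the height over local background. Cxcl10 encodes another interferon-induced chemokine for T cells, and Irf2 an IRF known mainly as a repressor that competes with IRF1. Gbp7 encodes a guanylate-binding GTPase that acts against intracellular microbes. The rank of the tags at the summit was not called lowered at any of these 3 promoters. They are shown because the letters of interferon and NF-κB elements are present in them, and they too were chosen after their values were seen.
Cxcl10 (chr5:92348840-92349139, minus strand, lowered in rank): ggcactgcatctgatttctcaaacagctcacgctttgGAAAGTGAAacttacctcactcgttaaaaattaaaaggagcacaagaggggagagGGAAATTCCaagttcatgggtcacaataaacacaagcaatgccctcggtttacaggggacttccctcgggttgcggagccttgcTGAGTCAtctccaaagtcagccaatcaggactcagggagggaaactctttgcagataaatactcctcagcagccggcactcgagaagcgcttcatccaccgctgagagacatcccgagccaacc
Irf2 (chr8:46739495-46739794, plus strand, lowered in rank): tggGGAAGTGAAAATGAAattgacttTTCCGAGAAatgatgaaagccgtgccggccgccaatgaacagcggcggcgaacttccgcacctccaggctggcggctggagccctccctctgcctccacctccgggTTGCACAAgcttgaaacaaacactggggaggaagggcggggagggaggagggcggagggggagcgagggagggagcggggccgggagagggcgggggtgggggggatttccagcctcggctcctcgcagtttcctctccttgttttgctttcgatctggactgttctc
Gbp7 (chr3:142530086-142530385, plus strand, lowered in rank): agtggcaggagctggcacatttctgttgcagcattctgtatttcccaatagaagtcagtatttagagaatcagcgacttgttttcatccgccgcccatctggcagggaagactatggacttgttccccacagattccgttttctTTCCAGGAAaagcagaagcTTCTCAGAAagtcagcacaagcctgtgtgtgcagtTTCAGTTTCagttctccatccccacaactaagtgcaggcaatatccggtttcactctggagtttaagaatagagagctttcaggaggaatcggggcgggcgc

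The motifs were searched as fixed letters on both strands: ISRE (GAAANNGAA), GAS (TTCNNNGAA), kappaB (GGAANTTCC), AP-1 (TGANTCA), C/EBP (TTGCNNAA), the IRF-Ets composite (GGAANNGAA), PU.1 (GAGGAAGT) and the E-box (CACGTG) for comparison. GAS, kappaB, AP-1 and the E-box read the same on both strands, and positions count from 1 at the 5′ end of the window. The Cxcl10 window held an ISRE at 38 to 46, a kappaB motif at 93 to 101 and an AP-1 motif at 177 to 183. In the Cxcl9 window an ISRE lay at 76 to 84 and an AP-1 motif at 282 to 288, beyond the transcription start. The Irf2 window opened with an IRF-Ets composite at 4 to 12 that overlaps an ISRE at 10 to 18, followed by a GAS motif at 27 to 35. Gbp7 had GAS motifs at 145 to 153 and 164 to 172 and an ISRE on the opposite strand at 199 to 207. Serpinb2 had a C/EBP motif at 49 to 56, an AP-1 motif at 157 to 163 and a GAS motif at 261 to 269, and Gpnmb an IRF-Ets composite at 4 to 12 and an AP-1 motif at 259 to 265. No match was found in the Il12a and Cd36 windows. Among all 21263 promoter windows, 8.15% held the ISRE letters, 7.69% GAS, 1.06% kappaB, 6.99% AP-1 and 10.2% C/EBP, so a match in a single window is a description and no sign of binding.

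Peaks at these promoters were low. Fold is the authors' own value per peak and follows the tags at the summit plus 1 over the expected local background plus 1. The Cxcl9 region (chr5:92328037-92328467) had a peak in 5 stimulated and 0 unstimulated libraries, with folds over local background between 3.83 and 5.08 and a median of 4.09. At Il12a (chr3:68691067-68691546) the count was also 5 against 0, with folds from 4.53 to 5.64 and a median of 5.17. The Serpinb2 region (chr1:107511138-107511523) was found in 6 stimulated and 0 unstimulated libraries, at folds from 3.72 to 5.90 with a median of 4.51. None of these 3 promoters had a peak in an unstimulated list, and of them the Il12a call also passed with lists of equal length. At Cd36 (chr5:17835632-17836202) 1 stimulated library, at a fold of 3.80, stood against all 6 unstimulated libraries, at 4.91 to 6.66 with a median of 5.88. At Gpnmb (chr6:49036325-49036809) the 1 stimulated library had a fold of 3.78 and the 6 unstimulated libraries had 4.49 to 6.46 with a median of 5.73. The stimulated folds at both lay below every unstimulated fold, and the Cd36 call passed with lists of equal length while the Gpnmb call did not. The 1 stimulated Gpnmb peak held 18 tags, within the 12 to 20 of the unstimulated peaks, over a local background of 4.03 tags against 1.9 to 2.54. Of 12 settings that left out 1 library each, the Serpinb2 call was kept in 12, the Cd36 call in 4 and the Cxcl9, Il12a and Gpnmb calls in 3 each.

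Fewer peaks were called in stimulated macrophages, and a larger share of them sat at gene ends. The lists held 47268 ± 4535 peaks in stimulated and 55990 ± 3486 in unstimulated libraries (SD, n = 6 each), with 41385 to 54960 against 51425 to 60610 (two-sided exact permutation test, p = 0.00649, adjusted p = 0.0130). Summits within 1 kb of either end of a protein-coding gene made up 26.2% ± 1.64 of stimulated and 22.6% ± 0.854 of unstimulated peaks (p = 0.00216 in the same exact test, the smallest it can give, adjusted p = 0.00866), with no overlap between the groups. This difference, 3.56 percentage points, was 1.98 with lists of equal length and 2.07 for ends within 200 bp. Covered length, 17.3 ± 2.62 Mb in stimulated and 19.7 ± 1.48 Mb in unstimulated libraries, missed the threshold (adjusted p = 0.11, exact permutation test), and the difference, -2.42 Mb, was -0.611 Mb with lists of equal length (p = 0.439, exact permutation test). Stimulated replicate 6 had the most peaks of its group, 54960, the other 5 stimulated libraries having 41385 to 48137. Without stimulated replicate 6 the difference in covered length passed, at -3.41 Mb (p = 0.00649, exact permutation test). Read totals are unknown here. The lowest local background of a library, which moves with its number of mapped tags, was 0.863 ± 0.0855 tags in stimulated and 0.801 ± 0.0716 tags in unstimulated libraries and did not pass (p = 0.219, exact permutation test). The median fold of the peaks was 6.04 ± 0.115 in stimulated and 6.75 ± 0.243 in unstimulated libraries, a measure added after the data were seen (p = 0.00216, exact permutation test). Lists of unequal length bear on counts of lost regions, so counts over all regions and over gene lists are also given for lists cut to the 41385 peaks of the shortest control list.

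**Figure D1:**
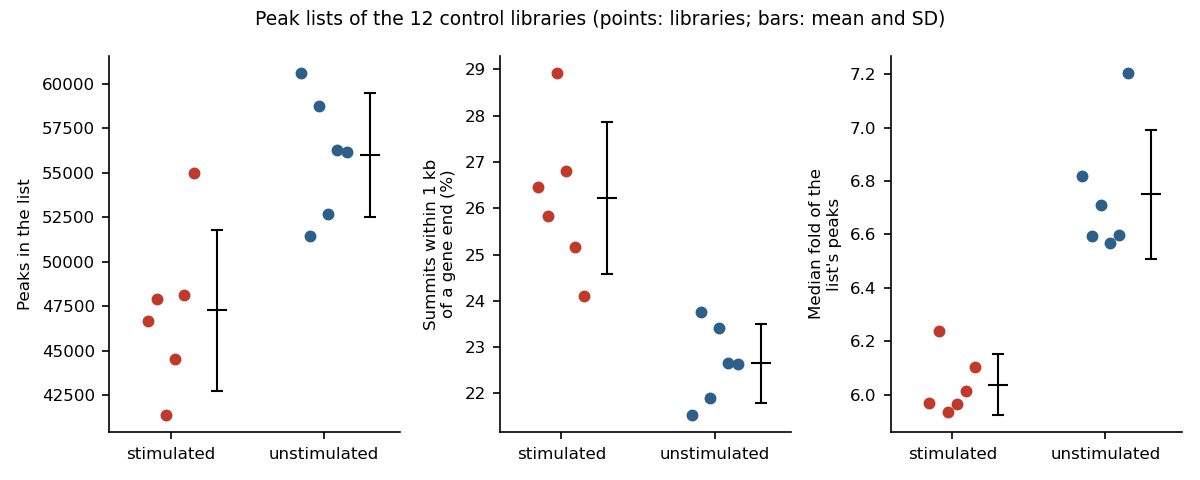
Peaks per library, share of peak summits within 1 kb of a gene end (percent) and median fold of a library's peaks over local background, for 6 stimulated and 6 unstimulated control libraries (points), with the mean and SD. Stimulated libraries had fewer peaks (47268 against 55990 on average), a higher share at gene ends (26.2% against 22.6%) and a lower median fold (6.04 against 6.75).

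Stimulation was accompanied by more losses than gains of peaks. Of 87662 regions with a peak in any control library, 24502 had one in all 12, 18362 in a single library, and 12111 in 5 to 7 libraries, the only numbers for which a two-sided Fisher's exact test of 6 against 6 can reach an unadjusted p under 0.05. After Benjamini-Hochberg adjustment over these 12111 regions, 1018 (8.41%) were gained and 3331 (27.5%) lost. A peak in 6 stimulated and 0 unstimulated libraries passed at an adjusted p of 0.0173 (441 regions), and 5 against 0 (374 regions) and 6 against 1 (203 regions) passed at 0.0422 in the same exact test. In the lost direction the same patterns held 1078, 1045 and 1208 regions. With lists of equal length 9421 regions were testable, and 1471 (15.6%) were gained and 1775 (18.8%) lost. Losses made up 76.6% of calls with the whole lists and 54.7% with lists of equal length. Of the regions called with whole lists, 736 of 1018 gained and 1207 of 3331 lost ones passed again. Leaving out 1 library gave 467 to 1178 gained and 1149 to 4447 lost regions. Without any single one of stimulated replicates 1 to 4 or unstimulated replicates 1 and 3 to 6 the counts were 467 to 544 gained and 1149 to 1325 lost, and without stimulated replicate 6 there were 1169 gained and 4447 lost regions.

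**Figure D2:**
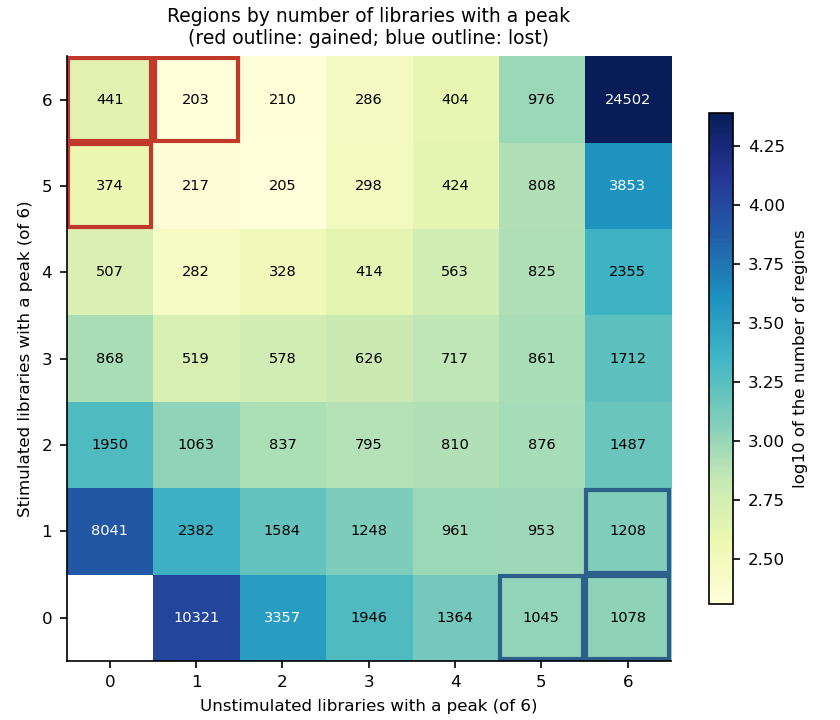
Number of regions by how many of the 6 stimulated and the 6 unstimulated control libraries held a peak in them; red outlines mark the patterns called gained and blue outlines those called lost. The cell for 6 stimulated and 0 unstimulated libraries holds 441 regions, and the opposite cell 1078.

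Gained and lost regions were mostly distal. Only 4.81% of gained and 4.35% of lost regions had their strongest summit within 1 kb of a gene end, against 8.03% of all tested regions and 35.5% of those found in all 12 libraries. Gained regions were wider, with a median of 458 bp, than lost regions, with 381 bp, and 54.1% and 58.0% lay inside gene bodies. Within 50 kb of a gene lay 855 gained and 2809 lost regions, and 753 genes had a gained, 2183 a lost and 231 both kinds of region nearest to them. Lpp, a focal adhesion scaffold, had the most gained regions, 4, followed by Dtd1, Jazf1, Nrp1 and Slco3a1 with 3 each. These genes are 147 to 599 kb long and had 6 to 13 tested regions each. Lpp also lost 2 regions, Nrp1 3, and Dtd1 and Jazf1 1 each. Genes with the most lost regions, 6 each, included Adgrv1, Arhgap24, Nedd4l and Tenm4. Those named are 333 to 740 kb long and had 6 to 10 tested regions each. With lists of equal length 3, 3, 3 and 1 of their losses passed again. Counts per gene were not scaled to gene length.

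The gained regions with the highest folds were led by a site inside the body of Nfkb1, the gene of the NF-κB precursor p105 (chr3:135640137-135640654). It had a peak in 6 stimulated and 0 unstimulated libraries, with folds from 9.76 to 14.1 and a median of 11.2, and 29 to 51 tags at the summit. Its median fold was the highest of the 12 leading gained regions, ahead of 10.3 near Grm5, and no unstimulated library had a peak there. The remaining 11, all 6 against 0, lay inside or near Grm5, Rab38, Phip, Fpr2, Tent4a, Cdk20, Ube2z, Id2, Tnfsf15, Uchl5 and Zbtb20. Near Fpr2, a receptor for formylated bacterial peptides, a region 23773 bp away (chr17:17917413-17918036) had folds of 7.97 to 9.87 with a median of 9.03. Near Tnfsf15, the TNF family ligand TL1A, folds at chr4:63757686-63758251 were 7.21 to 9.23 with a median of 7.72. Near Id2, an inhibitor of helix-loop-helix factors, they were 7.27 to 10.6 with a median of 9.05 (chr12:25143315-25144002). Tags at the summits of these 3 regions were 16 to 31 in stimulated libraries, and none of the 6 unstimulated libraries had a peak at any of them.

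The leading lost regions, all absent from stimulated and present in all 6 unstimulated libraries, included regions inside or near Apaf1, Rere, Olfr694, Ppp1r16b, Adgrl2, Skint3, Igf1, Smg1, Dlgap1, Slc17a5 and Fggy. A region 6093 bp from Apaf1, the scaffold of the apoptosome (chr10:90982932-90983504), had unstimulated folds of 9.79 to 14.8 with a median of 11.8. Inside Igf1, a growth factor that macrophages secrete in tissue repair (chr10:87908755-87909153), they were 8.18 to 11.6 with a median of 9.68. Inside Slc17a5, the lysosomal sialic acid exporter (chr9:78578871-78579262), they were 8.03 to 12.6 with a median of 10.3. The summits of these 3 regions held 14 to 35 tags in unstimulated libraries, and no stimulated library had a peak there.

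The genes of TLR4 signalling, from the receptor to the kinases that release NF-κB, had few called regions. Of 12 tested regions of the 23 genes, 1 was gained and 4 were lost, close to the 8.41% gained and 27.5% lost among all tested regions, and equal-length lists gave 1 gained and 2 lost, where 15.6% of all tested regions were gained and 18.8% lost. The gained one lay inside Tab2, an adaptor of the kinase TAK1 (chr10:7942807-7943394), where 6 stimulated libraries had folds of 3.91 to 8.78 with a median of 5.88 and no unstimulated library had a peak. Regions of Map3k7, which encodes TAK1 itself, of the adaptor Tirap and of the LPS co-receptor Cd14 were lost. For NF-κB subunits and their IκB inhibitors, 3 of 12 tested regions were gained and 2 lost. All 3 gained regions belonged to Nfkb1, which also lost 1, and 1 of the 3 passed again with lists of equal length, where the list had 1 gained and 3 lost. Nfkbiz, a nuclear IκB that selects late NF-κB targets, had only a lost one 15589 bp away (chr16:55795445-55796126), found in 1 stimulated library at a fold of 5.55 and in 6 unstimulated libraries at 5.20 to 7.88.

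Genes that carry the interferon signal had 5 gained and 5 lost among 23 tested regions, 21.7% each way against 8.41% gained and 27.5% lost among all tested regions. Equal-length lists gave 4 gained and 3 lost, where 15.6% of all tested regions were gained and 18.8% lost. Jak2 and Ptpn2, a phosphatase that restrains JAK signalling, each gained a region in 5 stimulated libraries, and both calls were lost with lists of equal length. A region inside Irf8, a lineage factor of macrophages (chr8:120743620-120744223), was lost, with 0 stimulated libraries against 6 unstimulated ones at 4.81 to 6.30 and a median of 5.61. Irf8 also gained 1 region, and both of its calls passed with lists of equal length. Jak1 and Irf1 lost 2 regions each, of which 1 of Jak1 and 0 of Irf1 passed with lists of equal length.

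Interferon-induced effector genes had regions called in both directions. Of 10 tested regions of the GTPase genes 5 were gained and 4 lost, and of 17 regions of antiviral genes 6 were gained and 5 lost. The shares gained were 50.0% and 35.3% against 8.41% of all tested regions, and the shares lost 40.0% and 29.4% against 27.5%. Equal-length lists gave 5 gained and 1 lost for GTPases and 9 gained and 2 lost for antiviral genes. With these lists 15.6% of all tested regions were gained and 18.8% lost. The regions of each gene list tested there are not given, so these counts cannot be read as shares. Rsad2, the antiviral enzyme viperin, gained a region 227 bp from its body (chr12:26441868-26443163) in 6 stimulated and 0 unstimulated libraries, at folds of 3.26 to 4.58 with a median of 3.76. Ifit2, which binds foreign RNA, gained one 918 bp beyond its body (chr19:34576972-34577932), at 3.84 to 5.65 with a median of 5.09, also 6 against 0. Inside Usp18, a protease that removes ISG15 and restrains the interferon receptor (chr6:121250021-121250532), stimulated folds were 4.20 to 7.63 with a median of 5.19, and Gbp2b had 3.36 to 6.16 with a median of 4.6 at its own gene end (chr3:142618639-142619105). The summits held 16 to 33 tags at Usp18 and 17 to 34 at Rsad2, over local backgrounds of 3.04 to 4.72 and 4.10 to 8.70 tags. Lost regions in the same families lay inside Gbp3 and Aim2, a sensor of cytosolic DNA, both 0 against 6, and inside Gbp2 next to the gained Gbp2b region. Gbp2 had 1 gained and 2 lost regions in all, and Rsad2 and Ifi47 had 1 of each. The Gbp genes are closely related copies in a cluster, so the gene of a region there is uncertain.

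Among cytokines 7 of 28 tested regions were gained and 4 lost, and among chemokines 5 of 11 were gained and 1 lost, against 8.41% gained and 27.5% lost among all tested regions. Equal-length lists gave 11 gained and 3 lost for cytokines and 2 gained and 1 lost for chemokines. Among all regions tested with these lists 15.6% were gained and 18.8% lost. Il15, a cytokine for natural killer and memory T cells, gained a region inside its body (chr8:82372858-82373293) in 6 stimulated and 0 unstimulated libraries, at 4.62 to 6.53 with a median of 5.48. Il12b, the p40 subunit of interleukins 12 and 23, had one 17708 bp away (chr11:44382099-44382610) at 3.91 to 7.25 with a median of 6.66, again 6 against 0. A region inside Cxcl10, a chemokine for T cells (chr5:92346900-92347498) had 3.48 to 4.52 with a median of 3.72 in all 6 stimulated libraries and no peak in unstimulated ones. Ccl5 and Ccl8, chemokines for T cells and monocytes, gained a region each in 5 stimulated and 0 unstimulated libraries, and Cxcl5 one in 6 against 1. The losses were near Lif, Csf1 and Il1b among cytokines and near Cxcl1, a neutrophil chemokine, among chemokines (chr5:90853199-90853629, 0 against 6, unstimulated folds of 6.01 to 7.68 with a median of 6.63).

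Effectors of classical activation had 10 gained and 9 lost among 31 tested regions, 32.3% and 29.0% against 8.41% and 27.5% among all. With lists of equal length they had 12 gained and 9 lost. For this and the other equal-length counts below, 15.6% of all tested regions were gained and 18.8% lost. Nos2, the inducible nitric oxide synthase, gained a region 31543 bp away (chr11:78889034-78889453), at 4.37 to 6.62 with a median of 5.33 in all 6 stimulated libraries and in no unstimulated one. Fpr1, the other formyl peptide receptor of this list, gained one 1030 bp away (chr17:17884749-17885188), at 5.23 to 6.95 with a median of 6.12. Regions inside Slamf7, the costimulator Cd86 and the checkpoint ligand Cd274 (PD-L1) were lost, each 0 against 6, with unstimulated folds reaching 9.24, 7.56 and 9.38. Slamf7 and Cd86 also gained 1 region each. Antigen presentation genes gained none of 10 tested regions at a background of 8.41% and lost 3, among them one near Nlrc5, the activator of MHC class I genes (chr8:94428440-94428756, 0 against 5), whereas equal-length lists gave 3 gained and 1 lost. Feedback inhibitors gained 5 and lost 13 of 32 tested regions, 40.6% lost against 27.5% among all, but with lists of equal length they gained 4 and lost 9, and with 1 library left out they lost 6 to 19. Irak3, which blocks TLR signalling at the level of IRAK kinases, gained a region inside its body (chr10:120191193-120191551), at 5.32 to 9.09 with a median of 6.67 in 6 stimulated libraries against none, and lost 3 others. Tnip1, an adaptor of A20, and the phosphatase Dusp16 gained one each with the same 6 against 0. Tnfaip3, the gene of A20 itself, which also had a gained region, Tnip3 and the RNase Zc3h12a lost regions, 0 against 6, the one of Tnip3 (chr6:65614015-65614778) with unstimulated folds of 7.74 to 9.67 and a median of 7.98.

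Genes of alternative activation, lipid handling, the lysosome and glycolysis had more lost than gained regions, as all tested regions did. The counts were 8 lost and 3 gained of 19 tested regions for alternative activation, 7 and 2 of 31 for lipid handling, 11 and 3 of 36 for lysosome and phagocytosis, and 6 and 1 of 18 for glycolysis and HIF. As shares of tested regions these losses, 42.1%, 22.6%, 30.6% and 33.3%, lie around the 27.5% of all tested regions, so nothing particular to these lists is read from them. In equal-length lists the gained regions numbered 5, 5, 3 and 1 and the lost regions 7, 8, 5 and 3. Among all regions tested there 15.6% were gained and 18.8% lost. Mrc1, the mannose receptor CD206 (chr2:14269233-14269589), lost a region with unstimulated folds of 6.05 to 9.27 and a median of 7.28. Cd36 lost a second region inside its body (chr5:17849609-17849933, 4.93 to 6.08, median 5.27), and Lyst, a regulator of lysosome size, one with 6.05 to 11.4 and a median of 9.65 (chr13:13648970-13649489). Plin2, a coat protein of lipid droplets, Pfkl, a subunit of phosphofructokinase, and Eno1, an enolase, lost regions in the same pattern of 0 against 6. Egr2, an early growth response factor, and Mitf, a regulator of lysosomal genes, gained one each in 6 stimulated and 0 unstimulated libraries, and Mitf also lost one over a promoter window. Hif1a gained a region in 5 stimulated libraries whose call was lost with lists of equal length.

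AP-1, C/EBP and lineage factors gained 3 and lost 7 of 34 tested regions, 8.82% and 20.6%, near the 8.41% and 27.5% of all, the losses including Jun and Runx2, both 0 against 6, and the gains including Prdm1, the repressor BLIMP-1, at 6 against 0. Equal-length lists gave 6 gained and 4 lost, the Jun loss not among them, where 15.6% of all tested regions were gained and 18.8% lost. Of the 18 genes of macrophage identity 16 had a region in all 12 libraries and none lacked a region, while 4 of their 13 tested regions were lost and none gained, 30.8% lost against 27.5% among all. Lgmn, Mertk, Cd14 and Mpeg1 were the genes with those losses, and that of Mertk alone passed with lists of equal length. Marker lists of other cells had 4 of 8 tested regions lost for T and NK cells and 6 of 17 for dendritic cells. Of these losses 1 and 4 passed again with lists of equal length. Neutrophil genes lost 1 of 9 and stromal and endothelial genes 2 of 11. B cell genes lost 0 of 7, erythroid and megakaryocytic genes 0 of 2, and mast cell and basophil genes 0 of 3. Gained were 2 neutrophil, 1 stromal and endothelial and 1 dendritic cell region. The list counts changed when single libraries were left out, as the counts over all regions did. Fisher's exact test gives few p-values here, so each pattern of detection passes or fails adjustment as a block. A changed count therefore need not be due to the library left out. In the first settings named below, all regions gave 467 to 544 gained and 1149 to 1325 lost. In the later settings they gave 1074 to 1178 gained and 4109 to 4447 lost. Without any one of stimulated replicates 1 to 4 or unstimulated replicates 1 and 3 to 6, gained regions numbered 2 to 3 for GTPases, 3 to 5 for antiviral genes, 3 to 4 for cytokines, 1 to 3 for chemokines, 2 to 4 for interferon signalling and 9 to 10 for classical effectors, and 0 to 1 for lipid handling. Lost regions then numbered 6 to 8 for feedback inhibitors, 3 to 4 for lysosome and phagocytosis and 1 to 2 for alternative activation. Without stimulated replicate 5 or 6 or unstimulated replicate 2, gained regions numbered 5 to 7 for GTPases, 6 to 8 for antiviral genes, 7 to 8 for cytokines and 5 for chemokines, and lost regions 17 to 19 for feedback inhibitors.

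**Figure D3:**
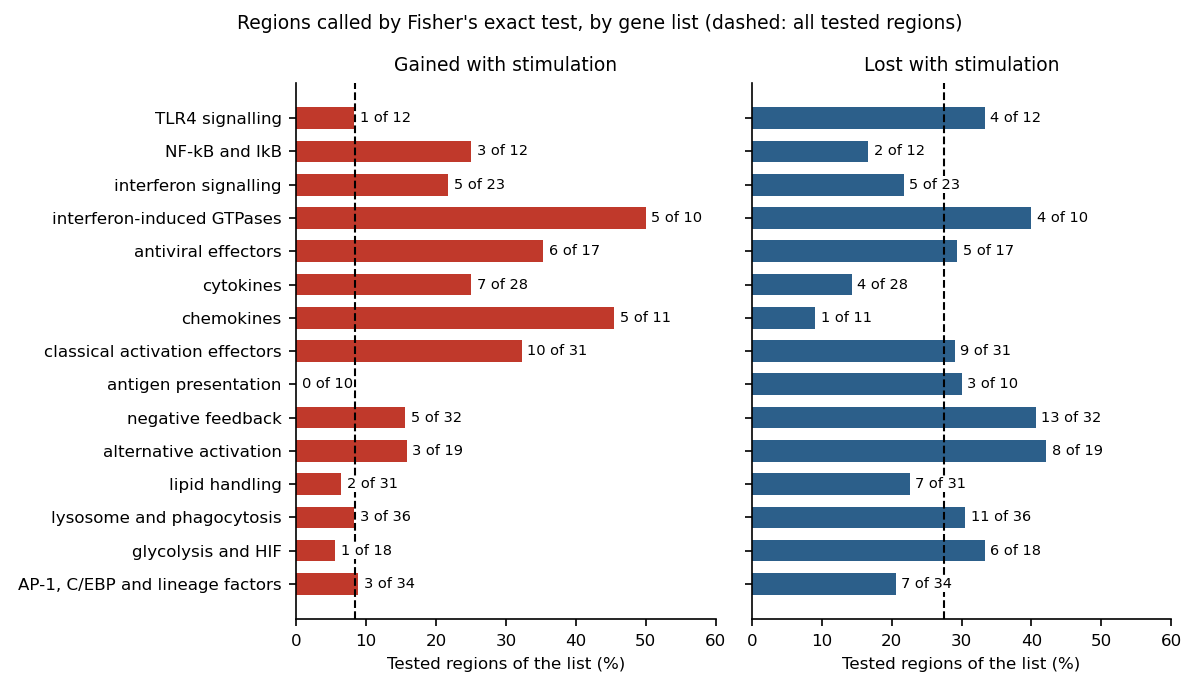
Share of tested regions gained (left) and lost (right), in percent, for 15 pathway lists; the numbers are called regions of regions tested and the dashed lines the shares over all 12111 tested regions, 8.41% gained and 27.5% lost. GTPases (5 of 10) and chemokines (5 of 11) have the highest shares gained with whole lists, and antigen presentation (0 of 10) none.

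Regions open in both states shifted in rank in both directions. Among the 24502 regions with a peak in all 12 control libraries, the fold was turned into a percentile within each library and the group means compared with a two-sided exact permutation test over 924 label orders. Of these regions 1626 (6.64%) were raised and 1583 (6.46%) lowered after Benjamini-Hochberg adjustment, with a median shift of 28.4 percentile points among those called. Raised regions lay at gene ends in 41.9% and lowered regions in 9.98%, against 35.5% of all 24502. Without any one of unstimulated replicates 2 to 6 the counts were 563 to 638 raised and 502 to 541 lowered. Without unstimulated replicate 1 they were 0 in both directions. The permutation test gives a limited set of p-values, and no region passes adjustment unless enough regions reach the smallest. Calls can therefore vanish together, so the 0 does not show that they rest on that 1 library.

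Fold divides tags by local background, so its parts were also ranked, an analysis added after the data were seen. Whole numbers of tags and a background level that give both the deposited fold and the deposited p-value were found for 100% of the peaks. By tags at the summit 2583 regions (10.5%) were raised and 2970 (12.1%) lowered, and by local background 3621 (14.8%) were raised and 4300 (17.5%) lowered. Of 1626 regions raised in fold, 1202 were raised in tags, 1 was lowered and 423 were neither. Of 1583 lowered in fold, 1289 were lowered in tags, 4 were raised and 290 were neither, and 145 were raised in local background. Tags and background rose together in 1494 regions and fell together in 2052. Without any one of unstimulated replicates 1 to 6 tags were raised in 1562 to 1694 and lowered in 1870 to 1989 regions, and without stimulated replicate 6 in 2557 and 2868. The background is the caller's estimate from the surroundings of a peak, over a window of unstated width.

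The largest rise in fold was inside Rapgef5, an exchange factor for the GTPase Rap1 (chr12:117566191-117566823). Its folds were 9.58 to 12.7 with a median of 11.4 in stimulated and 4.96 to 8.4 with a median of 6.12 in unstimulated libraries, and its tags 28 to 42 (median 35) against 9 to 20 (median 13), without overlap. The mean percentile of fold was 73.3 points higher (adjusted p = 0.0302, exact permutation test, the smallest value reached). Further leading rises were inside or near Dach1, Grm5, Map4, Pcdh7 and Lyn, at 68.2 to 69.7 points. Inside Lyn, the Src-family kinase of myeloid cells (chr4:3786707-3787191), 21 to 23 tags (median 22.5) in stimulated stood against 8 to 13 (median 11) in unstimulated libraries. By tags, and chosen after their values were seen, the leading region lay 15152 bp from Slc30a4, a zinc transporter gene (chr2:122665332-122666829), with 37 to 52 tags (median 42.5) in stimulated and 10 to 18 (median 11.5) in unstimulated libraries. The groups lay far apart at Slc30a4, and the percentile of tags was 84.3 points higher (adjusted p = 0.0196, exact permutation test).

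The largest falls in fold were inside Shisa9 and inside or near Rap1a, Pdhx, Cmtm8, Elovl5 and Emp1, where the percentile fell by 64.2 to 70.1 points. At Shisa9 (chr16:12032328-12033007) stimulated folds were 4.65 to 7.82 with a median of 5.76 and unstimulated folds 12.4 to 17.5 with a median of 15.3. Near Emp1, an epithelial membrane protein gene (chr6:135349988-135350598), tags were 8 to 15 (median 12) in stimulated and 34 to 59 (median 46) in unstimulated libraries. The groups did not overlap at either site, and tags, fold and background were all lowered there. At Elovl5, an elongase of polyunsaturated fatty acids (chr9:77923788-77924247), 8 to 13 tags (median 10) in stimulated faced 26 to 38 (median 34.5) in unstimulated libraries.

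Regions of cytokine and effector genes were raised and lowered. In fold 5 of 37 cytokine regions were raised and 3 lowered, 3 of 24 chemokine regions were raised and 2 lowered, and 4 of 38 regions of classical effectors were raised and 8 lowered, against 6.64% raised and 6.46% lowered among all regions. A second Il12b region, 9811 bp away (chr11:44389849-44390655), had 28 to 44 tags (median 37) in stimulated and 15 to 22 (median 17.5) in unstimulated libraries, and its fold was 44.2 points higher in percentile (adjusted p = 0.0302, exact permutation test). At the promoter of Tnfsf10, the death ligand TRAIL (chr3:27316764-27317576), tags were 16 to 40 (median 21.5) in stimulated and 14 to 19 (median 15) in unstimulated libraries, overlapping between the groups while the percentile of fold rose by 40.2 points. Inside Ifi47, an immunity-related GTPase gene (chr11:49084775-49085246), 19 to 33 tags (median 21) in stimulated libraries exceeded the 7 to 11 (median 9) of all unstimulated ones. Regions of Cd69, an early activation antigen, Cxcl16, a transmembrane chemokine, and Ifnb1, interferon beta, rose by 33.6, 39.6 and 39.4 points in fold, and in tags as well, while 2 other regions of Cd69 were lowered in fold.

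Lowered regions of list genes included the following, all lowered in fold and in tags. At 11130 bp from Cx3cr1, the fractalkine receptor of resting monocytes and macrophages (chr9:120037255-120037851), tags were 7 to 15 (median 10) in stimulated and 22 to 40 (median 27) in unstimulated libraries. Near Tlr4 itself, 10653 bp away (chr4:66857009-66857458), they were 12 to 20 (median 14.5) in stimulated and 25 to 40 (median 34) in unstimulated libraries. A region 35515 bp from Ptgs2, cyclooxygenase 2 (chr1:150143482-150144015), had 7 to 16 (median 11.5) in stimulated against 31 to 46 (median 39) in unstimulated libraries. None of these 3 pairs of groups overlapped, and their fold percentiles fell by 60.3, 35.7 and 59.9 points (adjusted p = 0.0302, 0.0496 and 0.0302, exact permutation test). Inside Jak1 (chr4:101172653-101173184) and 32043 bp from Ifngr1, a subunit of the IFNγ receptor (chr10:19559653-19560159), tags were 10 to 19 and 8 to 16 in stimulated against 32 to 45 and 18 to 34 in unstimulated libraries. Itgam, the integrin CD11b, and Lrp1, the low-density lipoprotein receptor-related protein, fell by 31.6 and 35.2 points in fold, again with fewer tags. Itgam also had 1 region raised in fold, as had Csf2ra.

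At the promoters of several interferon-induced genes the rank of the fold fell while that of the tags did not pass the test. The Cxcl10 promoter region (chr5:92348712-92349169), which covers the whole window printed above and lies inside the body of the overlapping gene Art3, had stimulated folds of 3.00 to 4.32 (median 3.58) and unstimulated folds of 7.95 to 10.9 (median 9.54). Its tags, 18 to 44 (median 23.5) in stimulated and 24 to 40 (median 32) in unstimulated libraries, overlapped, whereas the local background was 5.0 to 10.9 (median 5.76) against 1.97 to 2.79 tags (median 2.43) and did not. By percentile the fold was 48.4 points lower (adjusted p = 0.0302), the tags 3.45 points higher (adjusted p = 0.757) and the background 33.0 points higher (adjusted p = 0.0126, all exact permutation tests). The groups at Cxcl10 were apart in fold and in background but not in tags. The Ifit2 promoter (chr19:34550439-34551140) had 17 to 33 tags (median 20) in stimulated and 18 to 34 (median 32) in unstimulated libraries, over backgrounds of 2.48 to 4.76 (median 2.76) against 1.68 to 2.45 (median 2.00). At the Irf2 promoter (chr8:46739218-46740370) the tags, 26 to 39 (median 27.5) in stimulated and 40 to 52 (median 47.5) in unstimulated libraries, did not overlap yet missed the threshold as percentiles (adjusted p = 0.0895, exact permutation test), and the background was raised by 9.45 points. The same pattern of a lowered fold, uncalled tags and a raised background was seen at the promoters of Bst2, which tethers virus particles, and Tyk2, a kinase of the type I interferon receptor, and next to Oasl1, an inhibitor of Irf7 translation.

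**Figure D4:**
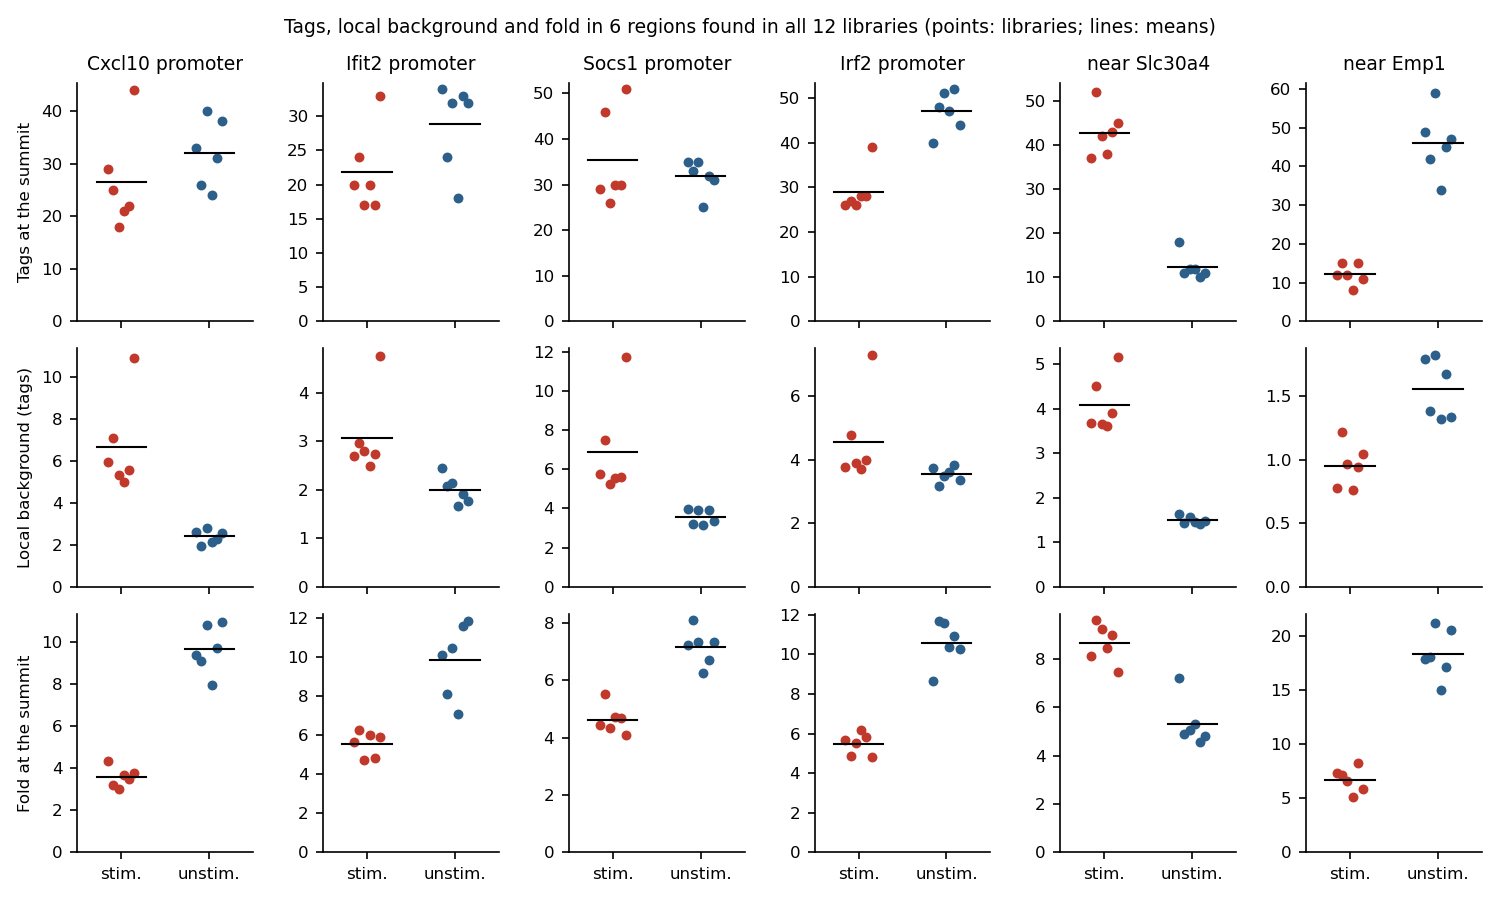
Tags at the summit, local background in tags and fold in 6 stimulated and 6 unstimulated control libraries at 4 promoters (Cxcl10, Ifit2, Socs1, Irf2) and 2 distal regions (near Slc30a4 and near Emp1); points are libraries and bars means. At Cxcl10 the tags of both groups overlap, at 18 to 44 and 24 to 40, while the background is 5.0 to 10.9 in stimulated and 1.97 to 2.79 in unstimulated libraries; near Slc30a4 and Emp1 the tags themselves separate.

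Some regions reversed between measures. The Socs1 promoter (chr16:10784898-10786649), of the inhibitor of JAK kinases, was lowered by 15.6 points in fold and raised by 22.1 points in tags (adjusted p = 0.0302 and 0.0196, exact permutation test), with backgrounds of 5.23 to 11.7 against 3.16 to 3.98 tags. Its tags, 26 to 51 (median 30) in stimulated and 25 to 35 (median 32.5) in unstimulated libraries, overlapped, so that the rise is one of rank within the library. A region 3097 bp from Rsad2 (chr12:26439378-26439913) fell by 38.1 points in fold while its tags rose by 32.8 points and its background by 67.7 points. The background there was 3.53 to 6.91 (median 4.0) in stimulated and 1.18 to 1.5 (median 1.26) in unstimulated libraries, the largest rise in background among regions within 50 kb of a gene. The leading rises in background, chosen after their values were seen, were near Rsad2, Mrpl39, Ccl5, Slamf1, Slc30a4 and Ifit2, and the leading falls near Shld1, Sdr16c5, Adarb2, Gm46240, Nsmaf and Il2. At Ccl5 (chr11:83534392-83535310) the background was 2.43 to 5.79 (median 2.64) in stimulated and 0.956 to 1.46 (median 1.05) in unstimulated libraries, with 15 to 40 tags (median 22) against 10 to 23 (median 14). Stimulated replicate 6 had the highest background at Cxcl10, Socs1 and Rsad2, and the other 5 stimulated libraries also lay above every unstimulated library at all 3.

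By list, interferon-induced and cytokine genes had many regions with raised local background. It was raised in 23 and lowered in 4 of 31 antiviral regions, raised in 23 and lowered in 3 of 37 cytokine regions, raised in 12 and lowered in 0 of 17 antigen presentation regions, and raised in 21 and lowered in 6 of 38 regions of classical effectors, against 14.8% raised and 17.5% lowered among all regions. Tags were raised in 10 and lowered in 0 of the antiviral regions, raised in 13 and lowered in 2 of the cytokine regions, and raised in 7 and lowered in 0 of 17 GTPase regions, against 10.5% raised and 12.1% lowered among all. In the same lists the fold was raised in 1 and lowered in 6 antiviral regions and raised in 5 and lowered in 3 cytokine regions, with median shifts of -8.09 and 7.10 percentile points against 0.65 for all regions. The antigen presentation genes with raised tags were Ciita, the master regulator of MHC class II, H2-Ab1, H2-M3, Nlrc5 and the immunoproteasome subunit gene Psmb10. Macrophage identity genes went the other way, with tags raised in 1 and lowered in 17 of 44 regions and background raised in 2 and lowered in 13. The genes with lowered tags included Adgre1 (F4/80), Cd14, Cd68, Csf1r, the receptor of the growth factor M-CSF, Cx3cr1, Itgam, Lgmn and Mertk, and the one with raised tags was Csf2ra, a GM-CSF receptor subunit. Lipid handling had tags raised in 7 and lowered in 19 of 71 regions, and lysosome and phagocytosis in 4 and 12 of 70. Without any one unstimulated library, tags were lowered in 8 to 10 macrophage identity regions, lowered in 9 to 12 lipid handling regions and raised in 2 to 4 GTPase regions. In the same settings they were raised in 10 to 11 antiviral and 11 to 12 cytokine regions, and the background was raised in 22 to 23 antiviral regions. Without stimulated replicate 6, tags were lowered in 15 macrophage identity and 18 lipid handling regions and raised in 6 GTPase regions, and without stimulated replicate 4 they were raised in 4 GTPase regions.

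**Figure D5:**
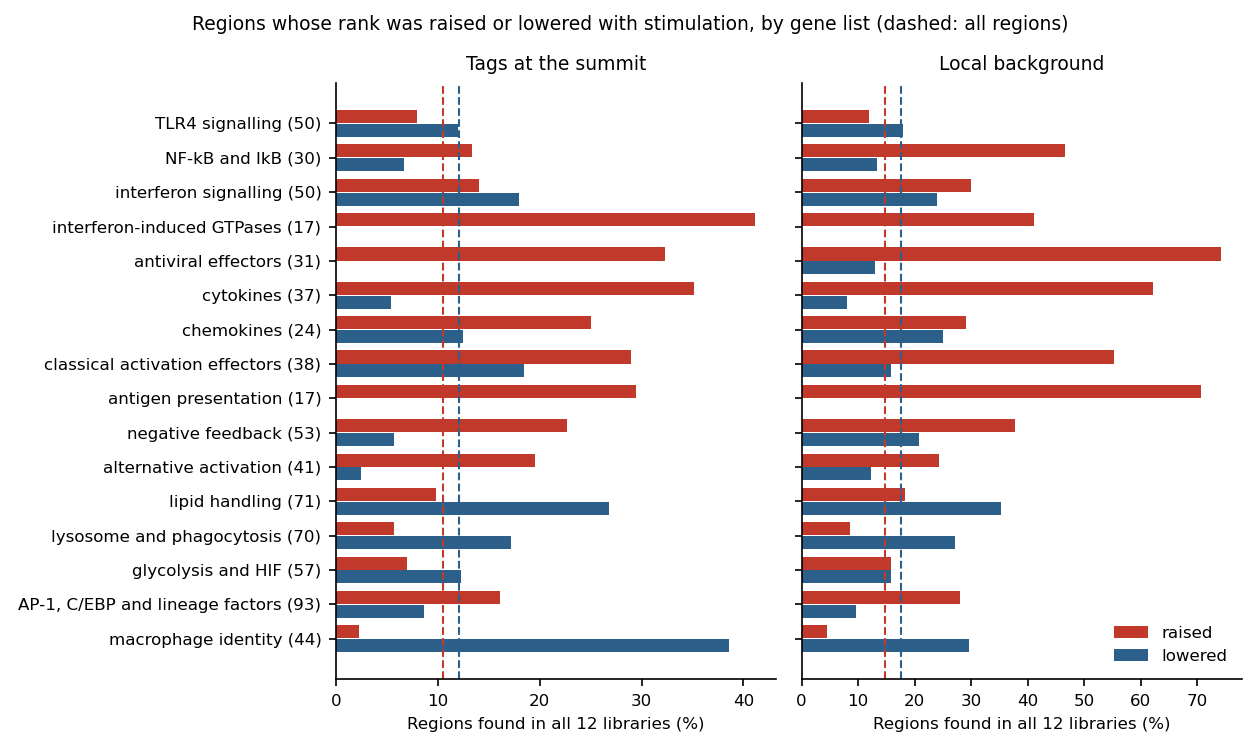
Share of regions found in all 12 control libraries that were raised (red) or lowered (blue) in rank, in percent, by tags at the summit (left) and by local background (right), for 15 pathway lists and macrophage identity; dashed lines give the shares over all 24502 regions. Antiviral genes stand at 10 raised and 0 lowered of 31 by tags and 23 raised and 4 lowered by background, and macrophage identity genes at 1 raised and 17 lowered of 44 by tags.

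More promoter windows were called in the rank comparison than in detection, but each test could take different regions. Of 11599 windows open in any control library 9366 were open in all 12, and regions in all 12 enter the rank comparison only. The larger number there therefore does not show how promoters respond. Among 8094 genes with a window open in all 12 libraries, promoters of 675 overlapped a region raised in fold and promoters of 129 a lowered one. Of these genes 17 and 14 were in the pathway lists. The number of list genes among the 8094 is not given, so 17 and 14 cannot be read as shares. Raised list promoters included those of Gch1, which makes the cofactor of nitric oxide synthase, Tnfsf10, Csf1, H2-M3 and Irak3, and lowered ones those of Cxcl10, Ifit2, Bst2, Irf2, Tyk2, Gbp7, Socs1, Lrp1, Mitf and B2m. The Gbp7 promoter (chr3:142529811-142531025) had 16 to 49 tags (median 27.5) in stimulated and 42 to 59 (median 46.5) in unstimulated libraries, and its background did not change its rank (adjusted p = 0.322, exact permutation test). The ISRE letters were found in 15.2% of lowered and 9.30% of raised windows, against 6.57% of windows open in all 12 libraries, and GAS in 11.6% and 6.37% against 6.41%. PU.1 was found in 7.97% and 2.42% against 3.12%, kappaB in 1.45% and 0.892% against 1.12%, and AP-1 in 7.25% and 2.93% against 4.17%. Lowered windows had a median GC content of 60% and raised windows one of 62.0%, against 62.3%, and no test was made of these shares.

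The response was repeated in part in macrophages of diabetic mice, which are separate samples. Shares by direction are given without a background, because the share over all regions was not computed. Of 1018 regions gained in control macrophages, 1004 (98.6%) were found in more stimulated than unstimulated diabetic libraries, and of 3331 lost regions 3010 (90.4%) in fewer. None of either kind was called in the opposite direction. Among those testable in diabetic libraries, 387 of 763 gained regions (50.7%) and 256 of 1524 lost regions (16.8%) were called there too, against 641 gained (5.47%) and 403 lost (3.44%) of all 11708 regions tested in the diabetic comparison. Only a pattern of 6 against 0 passed adjustment in the diabetic libraries, so a region not called there need not have responded less. With lists of equal length 808 of 972 gained (83.1%) and 559 of 918 lost regions (60.9%) were called in both. For these lists the share called among all regions tested in the diabetic comparison was not computed. Of the 12 leading gained regions 11, Rab38 excepted, were 6 against 0 in diabetic macrophages as well, while of the 12 leading lost regions only Slc17a5 was called there, the others being found in 1 to 3 stimulated diabetic libraries. A direct test of the difference between phenotypes, Zelen's exact test, passed for 0 of 9353 regions, 229 having an unadjusted p under 0.05.

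Most marker genes of other cell types had a region in at least 1 control library, fewer had one in all 12, and their part in the results was not tested. No region at all was found for 3 of 15 neutrophil, 5 of 17 T and NK cell, 4 of 11 B cell, 4 of 13 erythroid and megakaryocytic, 2 of 14 stromal and endothelial, 0 of 12 dendritic cell and 3 of 7 mast cell and basophil genes. Regions in all 12 libraries were found at 2 of 15 neutrophil genes, 5 of 17 T and NK cell genes, 0 of 11 B cell genes, 5 of 13 erythroid and megakaryocytic genes, 5 of 14 stromal and endothelial genes and 0 of 7 mast cell and basophil genes, against 16 of 18 macrophage identity genes. Ly6g, Elane, Cd3g, Cd8a, Ncr1, Cd79a, Cd79b, Gata1 and Lum had no region in any control library. Dendritic cell genes, many of which macrophages also use, had such regions at 10 of 12. Summed over a list, stimulated libraries held 59 to 85 and unstimulated libraries 79 to 87 regions of macrophage identity genes, 11 to 19 and 15 to 20 of neutrophil genes, 8 to 16 and 15 to 25 of T and NK cell genes, 23 to 33 and 25 to 36 of stromal and endothelial genes, and 42 to 52 and 55 to 70 of dendritic cell genes.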

How the data were processed

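ATAC-seq peak lists of 24 libraries were used, 6 in each of 4 groups, with 1 list per library. Tools named without roles in the submitters' processing notes are MACS2 2.1.1, Bowtie2 2.2.6, edgeR, DiffBind 2.4.8, Trim Galore 1.8 and FastQC 0.11.3, with the build mm10. How the caller was set, and whether reads were shifted for the transposase, is not stated there. Each deposited peak has a fold, which is the ratio of tags at the summit to local background, a −log10 p-value and a −log10 q-value, all set by the authors' caller within 1 library. Deposited lists hold no read counts, so sequencing depth is unknown, and a peak that is missing from a list may lie just under the caller's threshold.

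Peaks of all 24 lists that overlapped by at least 1 bp were merged into regions. Detection in 6 stimulated and 6 unstimulated control libraries was compared by Fisher's exact test, two-sided, in regions found in 5 to 7 of the 12, with Benjamini-Hochberg adjustment at 0.05. Regions in all 12 libraries were compared by percentile of fold within the library, with an exact permutation test and the same adjustment. Tags and background were solved from fold and p-value to a tolerance of 0.001. Regions were given to the nearest gene within 50 kb in the RefSeq table of GRCm38.p6, and lie at a gene end within 1000 bp. Promoter sequences were matched by symbol. Both tests were first tested on simulated data.

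Named regions are the 12 in each direction with the largest difference in libraries that also passed with lists of equal length, ordered by lowest fold, the 6 in each direction with the largest rank shift, up to 6 genes per list and the 5 genes with the most calls each way. Promoters, and leaders by tags or background, were chosen after their values were seen. The members and the gene lists were chosen with earlier results of these data known. Alternatives were lists of equal length, other region definitions, a −log10 q of at least 5, adjustment over more regions, a replicate block, other gene distances and leaving out each library. Analyses used Python 3.11.15 with numpy 2.4.6, pandas 2.3.3, scipy 1.17.1 and matplotlib 3.10.9. The labels do not say whether replicates are separate animals, so p-values measure the spread between these libraries. Results for a few genes that the named-region rule selects are not reported here.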

Additional observations from a re-analysis of the deposited data

Results flagged for a closer look

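In 7 groups of 6 libraries, 1 library stood apart from the other 5 in percentile of fold, by a gap that passed Dixon's critical value for its share of the range. Of 48 groups examined, chance alone would set apart about 1 in 20. Inside Dach1, stimulated replicate 6 was at 46.1, against 91.8 to 97.7 in the other stimulated libraries. Inside Map4, unstimulated replicate 4 was at 19.7, the others lying at 1.70 to 7.39, and near Cmtm8 unstimulated replicate 3 was at 95.5, above 74.6 to 80.9. At the Socs1 promoter unstimulated replicate 2 was at 37.7 and the others at 15.5 to 20.8. At the B2m promoter unstimulated replicate 5 was at 77.5, above 58.7 to 64.6. At the Gbp7 promoter stimulated replicate 3 was at 17.9, below 57.0 to 78.7. At the Cxcl10 promoter stimulated replicate 1 was at 2.78, the others being at 0.0327 to 0.743.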

How the results depend on the processing

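With lists of equal length 1775 regions were lost, and with a −log10 q of at least 5, 638 were gained. Adjusted over all regions in 2 or more libraries 0 were gained and 0 lost, since the smallest Fisher p, 0.00216, cannot pass there. Leaving out 1 library gave 467 to 1178 gained and 1149 to 4447 lost regions, and 0 to 1257 raised and 0 to 1291 lowered ones. In rank, 1068 were raised and 1015 lowered with lists of equal length, and 2583 and 2970 when tags were ranked. The Socs1 promoter reversed to 0.852 points by −log10 q (adjusted p = 0.934, exact permutation test) and 22.1 by tags, and the Cxcl10 promoter to 3.45 by tags; the cause was not tested. With equal length 808 gained and 559 lost regions were shared with diabetic macrophages.

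The difference in median peak width was -22.5 bp with lists of equal length (p = 0.186), 24.8 bp with a −log10 q of at least 5 (p = 0.00216) and -1.17 to 7.03 bp with 1 library left out, the lowest without stimulated replicate 6 (p = 0.766, all exact permutation tests). Covered length differed by -3.41 to -1.97 Mb with 1 library left out and by -0.611 Mb with lists of equal length. A block on replicate number gave 441 gained and 1078 lost regions by an exact McNemar test over 1818 regions, and 0 raised and 0 lowered by a sign-flip test. In this McNemar test only the patterns of 6 against 0 and 0 against 6 can pass, so its calls are those regions. The smallest p of the sign-flip test cannot pass adjustment unless most regions reach it. Neither outcome therefore bears on the pairing. Deviations of same-numbered libraries in percentile of fold correlated at -0.0194 to 0.0394. These values cannot show whether such libraries came from the same mouse sample, so the pairing stays unknown. Of 540 settings over 30 named regions of the detection comparison 456 kept the call and 84 lost it. The promoters of Cxcl9, Il12a, Gpnmb and Cd36 kept it with 3 to 4 of 12 libraries left out in turn. Of 330 settings over 20 named regions of the rank comparison 236 kept the call, 91 lost it and 3 reversed. These totals include settings without any call over all regions, so they do not measure how stable the named regions are. In detection this was adjustment over all regions in 2 or more libraries. In rank it was the sign-flip test and the setting without unstimulated replicate 1.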
